A study of Mus musculus with 3 samples.

Results

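The EGF family ligands and ErbB receptors described here are 9 of the 31053 genes measured. They were chosen by name: the 6 ligands Areg, Ereg, Hbegf, Tgfa, Epgn and Btc, and the 3 receptors Egfr, Erbb2 and Erbb3. All 9 were matched by gene symbol and each had UMIs (unique molecular identifiers, 1 per captured RNA 3' end) in every library. The tissue was the anorectal junction of wild-type C57Bl/6 mice, the border between colonic columnar and anal squamous epithelium, and the mice were 6 weeks old when obtained. Day 0 mice were untreated. Day 7 and day 42 mice had drunk 3% dextran sulfate sodium (DSS, which damages the colonic epithelium) for 6 days, and were severely colitic and recovered, respectively. Distal colon and anus of 5 mice were pooled into 1 single-cell 3' library per day, so there were 3 libraries, no replicates and no test between days. Trypsin digestion and removal of dead cells preceded library making and can set which cells were captured.

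The day 0, day 7 and day 42 libraries held 11037, 14376 and 11667 cells, with 89241138, 151886649 and 72258639 UMIs. Libraries shared between 40 and 55 cell barcodes by pair, of which 1 to 3 lay in the same cluster, and leaving out every cell with such a barcode changed no count of genes given here for squamous cells. The authors gave each cell 1 of 29 clusters and 1 of 14 cell type names. Keratinocytes are called squamous cells here. The names for colonocytes, for secretory colonocytes and for enteroendocrine cells (EEC) together make up the columnar cells. Of 8 keratinocyte markers, all were detected in squamous cells on every day (summed 13402, 19093 and 28251 CPM at day 0, day 7 and day 42, where CPM is a gene's share of all UMIs of a cell type in a library, scaled to a fixed total), and all 6 fibroblast markers were detected in fibroblasts (27750, 27645 and 24812 CPM). Squamous cells were 30.0%, 62.8% and 68.3% of cells on the 3 days, columnar cells 39.0%, 7.39% and 14.4%, and fibroblasts 13.01%, 2.20% and 1.90%. Those shares are not a measure of the tissue, because cells were captured after digestion.

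EGF family ligands are made as membrane-bound precursors that proteases such as ADAM17 cut free, after which they bind ErbB receptors on the same or a neighbouring cell. Amphiregulin (Areg), TGF-alpha (Tgfa) and epigen (Epgn) bind EGFR, whereas epiregulin (Ereg), HB-EGF (Hbegf) and betacellulin (Btc) bind EGFR and ERBB4. ERBB2 has no known ligand of its own and ERBB3 has a weak kinase, so both signal mainly in pairs with another receptor. In skin and gut these signals are known for driving epithelial growth and wound closure.

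Areg, Ereg, Epgn and Btc lie together on chromosome 5, within 375531 bases in GRCm38 (GENCODE M21). Epgn spans chr5:91027464-91035215 (plus strand), Ereg chr5:91074622-91093646 (plus), Areg chr5:91139599-91148432 (plus) and Btc chr5:91357261-91402994 (minus). Tgfa spans chr6:86195223-86275719 (plus). The receptors lie elsewhere: Egfr at chr11:16752203-16918158 (plus), Erbb2 at chr11:98412470-98437716 (plus) and Erbb3 at chr10:128567523-128589652 (minus). All are annotated as protein-coding genes. The 250 bases before the start of 6 members were matched in RefSeq (GRCm38.p6). Those of Areg, the ligand with the largest squamous difference between days, of Tgfa, a second EGFR ligand, and of Egfr, the receptor both bind, are shown 5' to 3' to set the start-site sequence of the ligand beside the other two. They are chr5:91139349-91139598 (plus strand), chr6:86194972-86195221 (plus strand) and chr11:16751953-16752202 (plus strand). Capitals mark matches, on either strand, to a TATA box (TATAAA), a cyclic AMP response element (CRE, TGACGTCA) or a GC box (GGGCGG).
Areg: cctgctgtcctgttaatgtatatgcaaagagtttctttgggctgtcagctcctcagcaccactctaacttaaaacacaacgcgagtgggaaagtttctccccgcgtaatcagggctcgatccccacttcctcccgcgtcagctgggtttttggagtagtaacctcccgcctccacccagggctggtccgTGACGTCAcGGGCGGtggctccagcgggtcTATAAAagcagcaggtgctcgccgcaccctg
Tgfa: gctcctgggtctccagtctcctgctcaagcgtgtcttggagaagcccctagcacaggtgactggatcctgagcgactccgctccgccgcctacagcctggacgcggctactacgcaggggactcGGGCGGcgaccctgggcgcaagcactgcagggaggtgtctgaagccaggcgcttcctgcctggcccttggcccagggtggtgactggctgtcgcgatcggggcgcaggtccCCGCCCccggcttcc
Egfr: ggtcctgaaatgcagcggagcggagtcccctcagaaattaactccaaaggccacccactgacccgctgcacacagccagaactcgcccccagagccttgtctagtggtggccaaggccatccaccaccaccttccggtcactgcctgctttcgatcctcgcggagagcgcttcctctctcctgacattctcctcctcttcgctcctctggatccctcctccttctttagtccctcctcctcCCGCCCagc
Position -1 is the base before the start. In the Areg window the CRE began at position -61, the GC box at -52 and the TATA box at -31, with no overlap between them. Of 32851 mouse promoter windows of the same length, 1.55% held that CRE, 32.7% a GC box and 12.4% a TATA box. Tgfa held GC boxes at -126 and -15, and Egfr 1 at -9. None of these windows held an AP-1 site (TGANTCA, in 6.75% of windows) or a CCAAT box (CCAAT, in 33.8%), which says only that those letters are not there. A match is a description of the sequence and was not tied to the measured levels.

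In squamous cells, the summed level of the 6 ligands was 129 CPM at day 0, 479 CPM at day 7 and 849 CPM at day 42, while that of the 3 receptors was 137, 96.6 and 94.7 CPM. A UMI is counted at 1 transcript end, so CPM here is not scaled by length. In columnar cells ligands summed to 1142, 1636 and 1299 CPM, and in fibroblasts to 132, 1342 and 270 CPM. Receptors summed to 157, 182 and 165 CPM in columnar cells, and to 101, 109 and 101 CPM in fibroblasts. Summed ligand levels therefore differed more between days than summed receptor levels did in squamous cells and in fibroblasts. These sums rest on few genes. Areg gave 33.0%, 64.6% and 55.3% of squamous ligand UMIs on the 3 days, and Hbegf 50.4%, 24.7% and 37.2%. Ereg gave 92.4% of fibroblast ligand UMIs at day 7. Not every ligand went with the sum, since squamous Btc differed less from day 0 than squamous Egfr did. The log2 ratios below have 10 CPM added to both levels, and a gene counts as 2-fold higher or lower where that ratio reaches 1 or -1 and its level is at least 5 CPM in either library. Ratios against day 0 share the day 0 library. All intervals are exact 95% intervals that cover counting error only, not differences between mice.

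Areg, a ligand that keeps barrier tissues growing after injury, was measured at 42.6 CPM in squamous cells at day 0 (interval 40.4 to 44.8). It reached 309 CPM at day 7 (306 to 312) and 470 CPM at day 42 (464 to 475). The log2 ratio to day 0 was 2.60 for day 7 and 3.19 for day 42. In words, squamous Areg was low at day 0 and high on both later days, and the counting intervals did not overlap. A UMI of Areg was found in 11.6%, 37.3% and 55.7% of squamous cells, and in 2.41%, 14.3% and 25.3% once each cell was thinned to 1000 UMIs. The lowest thinned shares among cell types with at least 50 cells were 0.760% in muscle-like cells at day 0, 1.06% in red blood cells at day 7 and 1.43% in lymphatics at day 42. Median depth there was 3664.5, 4079 and 1735.5 UMIs, against 9168, 11481 and 6542 in squamous cells.

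Within squamous cells Areg was highest in 4 of the 9 keratinocyte clusters with at least 50 cells in each library. In cluster 1 it was 38.7, 175 and 474 CPM at day 0, day 7 and day 42. In cluster 3 it was 40.6, 607 and 373 CPM. Clusters 1 and 3 were thus low at day 0 and at least 2-fold higher on both later days (as were 0.747% and 2.46% of genes in cluster 1 and 2.18% and 1.36% in cluster 3), with cluster 3 highest at day 7 and cluster 1 highest at day 42. Cluster 5 was already high at day 0, at 490 CPM (interval 453 to 529), followed by 585 CPM at day 7 and 734 CPM at day 42. Cluster 12, a cluster of shallow cells with median depths of 1948, 1672.5 and 1010.5 UMIs, was at 285, 360 and 335 CPM. Its summed neutrophil markers were 203, 6405 and 498 CPM, and their part in these levels was not tested. The remaining 5 clusters (4, 8, 9, 13 and 17) lay between 5.56 and 36.9 CPM on all days. Areg was 0.10 to 3.61 log2 units higher at day 7 than at day 0 in the 9 clusters, and at least 2-fold higher in 2 of them.

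The make-up of the squamous cells differed as well. Of the squamous cells on the 3 days, cluster 5 held 2.62%, 1.79% and 27.0%, and cluster 1 held 13.4%, 6.23% and 38.2%. Cluster 3 held 8.11%, 21.9% and 12.2%. Of squamous Areg UMIs, cluster 5 gave 45.3% at day 0, cluster 3 gave 85.3% at day 7, and clusters 5 and 1 gave 49.97% and 35.8% at day 42. Weighting the 9 clusters equally gave Areg log2 ratios of 0.91 for day 7 and 1.05 for day 42, so the day 7 value no longer reached 2-fold.

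Other lists also differed between days in squamous cells, not all in the order of Areg. The 8 colonocyte markers, all detected on each day, summed to 607, 453 and 1645 CPM in squamous cells, and in cluster 5 to 5144, 2308 and 3889 CPM, mostly from Krt19 (3744, 1527 and 2551 CPM). Columnar cells had 14885, 24120 and 19615 CPM of the same list. The 5 neutrophil markers summed to 23.3, 1559.7 and 187 CPM in squamous cells. The 8 genes of a dissociation response list added after the levels were seen (Jun, Junb, Fosb, Atf3 and heat shock genes) summed to 1519, 1962 and 3152 CPM. The part of these in the Areg result was not tested. In the same libraries, keratinocyte cluster 9 had 9.02, 10.8 and 13.3 CPM of Areg.

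**Figure D1:**
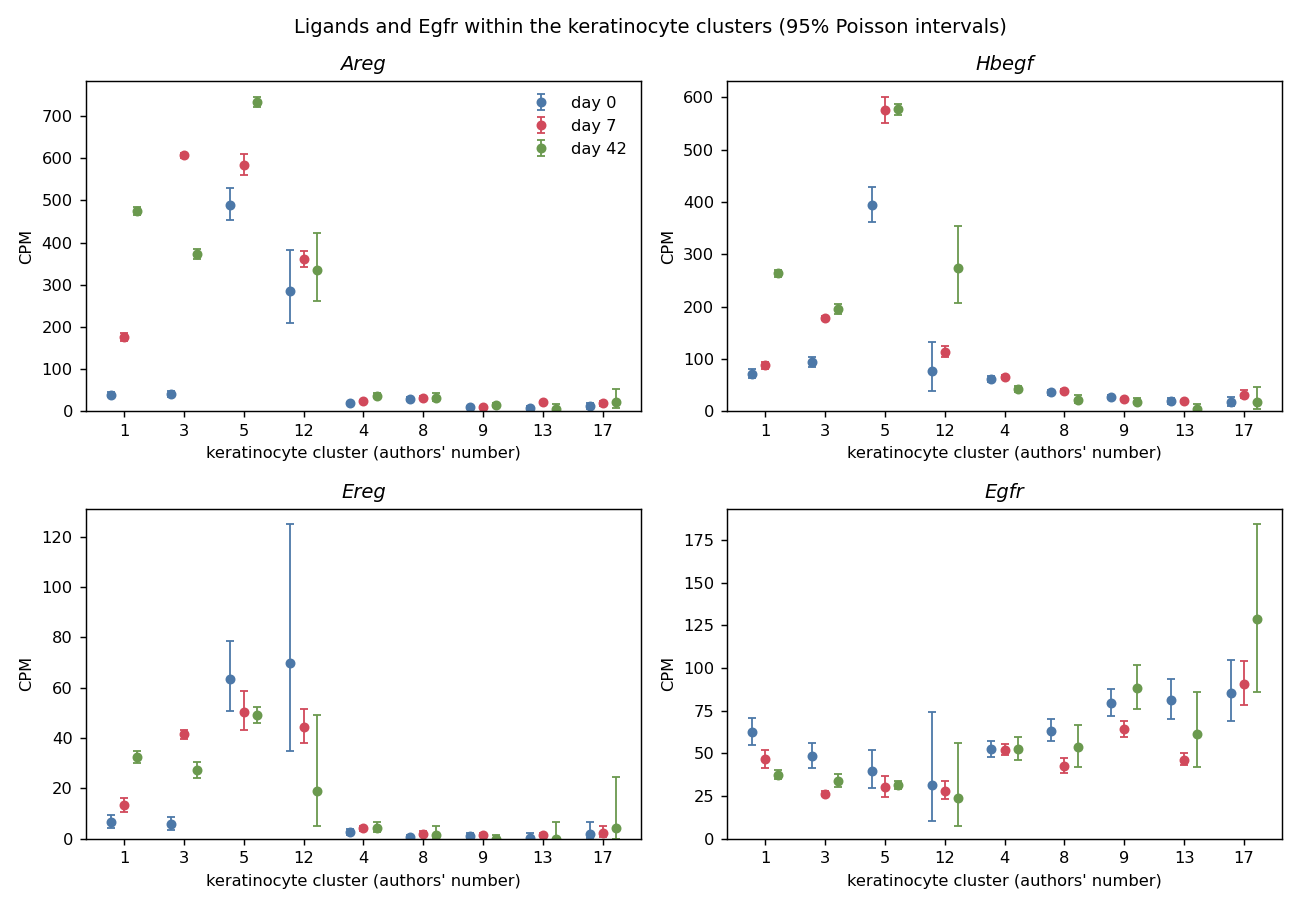
CPM of Areg, Hbegf, Ereg and Egfr (1 panel each, y axis) in the 9 keratinocyte clusters (x axis, authors' numbers) at day 0, day 7 and day 42, with exact 95% Poisson intervals as bars. Areg stays at or below 36.9 CPM in clusters 4, 8, 9, 13 and 17, where Egfr tends to be higher than in clusters 3, 5 and 12. Cluster 1, also high in Areg after day 0, lies between those groups in Egfr with all days pooled (42.7 CPM).

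Columnar cells had more Areg than squamous cells on every day: 407 CPM at day 0 (interval 401 to 413), 812 CPM at day 7 (793 to 831) and 616 CPM at day 42 (602 to 631). The columnar cells lay in different clusters by day: cluster 2 held 1936, 703 and 1072 of them, cluster 7 held 1809, 33 and 412, and cluster 22 held 4, 279 and 5. Areg in cluster 22 at day 7 was 739 CPM, in cells whose summed markers were 13617 CPM for colonocytes, 11605 CPM for keratinocytes and 12447 CPM for neutrophils. The columnar log2 ratio to day 0 was 0.98 for day 7, just under 2-fold, and 0.59 for day 42. For day 7 the median ratio of all genes in columnar cells was -0.15, and median-of-ratios size factors moved it to 0.0088. With those factors Areg was 1.20 log2 units higher, past 2-fold. In the same columnar cells the keratinocyte markers summed to 1700, 3800 and 3478 CPM, and the neutrophil markers to 0.820, 2224 and 104 CPM. Their part in the Areg values was not tested. Thinned shares of columnar cells with an Areg UMI were 23.4%, 38.6% and 33.3%. Within cluster 2, the colonocyte cluster with at least 50 cells on all days, Areg was 501, 901 and 935 CPM. In cluster 7, with too few cells at day 7, it was 406 CPM at day 0 and 388 CPM at day 42, so the day 42 difference was not shared by all columnar clusters. Secretory colonocytes had 127 CPM at day 0 and 186 CPM at day 42, and enteroendocrine cells 42.2 CPM at day 0. Among the columnar names with a level, cells named colonocytes were highest on those days. T cells had 449, 377 and 833 CPM of Areg, found in 23.7%, 22.03% and 24.0% of 219, 118 and 121 cells. Their 10 cells with most Areg UMIs gave 56.5%, 81.6% and 81.3% of it, so these levels rest on few cells. The neutrophil markers S100a8 and S100a9 in T cells were 3.62 and 12.7 CPM at day 0. They were 1718 and 2366 CPM at day 7 and 150 and 241 CPM at day 42, and their part was not tested.

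The order of Areg levels by cell type at day 0 was T cells (449 CPM), colonocytes (437 CPM), secretory colonocytes (127 CPM), keratinocytes (42.6 CPM) and EEC (42.2 CPM). T cells and colonocytes had overlapping counting intervals, as did keratinocytes and EEC. At day 7 colonocytes (839 CPM) came before T cells (377 CPM) and keratinocytes (309 CPM), whose intervals did not overlap. At day 42 T cells (833 CPM), colonocytes (672 CPM) and keratinocytes (470 CPM) led.

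Hbegf encodes a heparin-binding ligand that is known to be made at wound edges. Its level in squamous cells was 64.9 CPM on day 0 (interval 62.3 to 67.7), 118 CPM on day 7 (116 to 120) and 316 CPM on day 42 (311 to 320). Ratios to day 0 were 0.78 for day 7 and 2.12 for day 42, and the ratio of day 42 to day 7 was 1.34, all on the log2 scale. Thus the day 42 level stood apart from both earlier days. Thinned shares of squamous cells with an Hbegf UMI were 4.57%, 7.47% and 19.0%, against lowest shares of 0.380% (muscle-like cells), 0.529% (red blood cells) and 0 of 70 lymphatic cells, which allows up to 5.13%. Cluster 5 had 394, 575 and 577 CPM and cluster 1 had 71.5, 87.4 and 263 CPM. Cluster 3 had 93.3, 178 and 195 CPM, so Hbegf was again highest in the clusters with high Areg. Weighting the clusters equally took the day 42 ratio to 0.76 over day 0 and 0.30 over day 7, both under 2-fold. Columnar cells had 711, 786 and 659 CPM of Hbegf, with log2 ratios to day 0 of 0.14 and -0.11. Blood endothelial cells had 109 CPM at day 0, 97.7 CPM at day 7 and 201 CPM at day 42, from 46, 241 and 75 UMIs.

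Ereg, a ligand known for low affinity and long-lasting EGFR signals, had its highest level in fibroblasts on each day among cell types with at least 50 cells. Fibroblasts had 86.7 CPM at day 0 (interval 79.8 to 94.2, 1436 cells), 1240.0 CPM at day 7 (1190 to 1292, 316 cells) and 140 CPM at day 42 (113 to 171, 222 cells). Day 7 stood far above both other days, and the counting intervals of the 3 days did not overlap. The log2 ratio was 3.69 for day 7 against day 0 and -3.06 for day 42 against day 7, and it was 0.63 for day 42 against day 0. That last ratio, from 96 Ereg UMIs at day 42, turned to -0.084 with cells thinned to 1000 UMIs, so its sign did not hold. A UMI of Ereg was found in 16.4%, 54.7% and 18.0% of fibroblasts, and in 5.87%, 36.04% and 7.39% after thinning to 1000 UMIs per cell. The 10 fibroblasts with most Ereg UMIs gave 32.5%, 31.3% and 63.5% of them. Without those 10 cells the day 7 ratio was 3.69, and over the alternatives it lay between 3.69 and 4.06.

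Fibroblasts at day 7 also held 2974 CPM of the 5 neutrophil markers and 2063 CPM of the 8 keratinocyte markers, against 5.81 and 1391 CPM at day 0. The 8 colonocyte markers summed to 966 CPM at day 7 and 347 CPM at day 0. The part of these markers in the Ereg values was not tested. In the day 7 library, cells named neutrophils had 10.7 CPM of Ereg and keratinocytes 22.5 CPM. No Ereg UMI was found in lymphatics on any day, which allows up to 14.7, 3.81 and 17.3 CPM, or in T cells and blood endothelial cells at day 0 (up to 5.43 and 7.12 CPM). Muscle-like cells had 41.8 CPM at day 0. At day 7 only 41 such cells were captured, and they gave 3.66% of all Ereg UMIs from 0.118% of all UMIs.

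**Figure D2:**
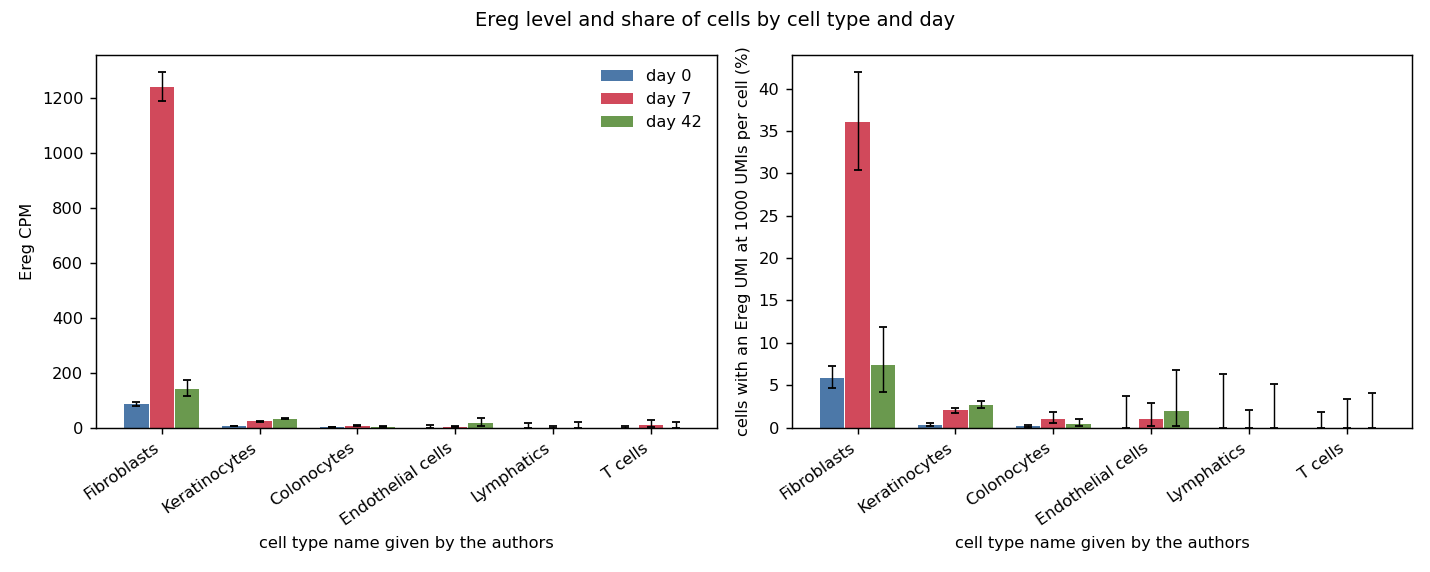
Ereg level in CPM (left) and percent of cells with an Ereg UMI after thinning each cell to 1000 UMIs (right) in 6 cell types at day 0, day 7 and day 42, with exact 95% intervals. Fibroblasts at day 7 reach 1240.0 CPM and 36.04% of cells, and every other bar lies below the fibroblast values of the same day.

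Squamous Ereg was 5.35 CPM at day 0 (interval 4.60 to 6.19), 22.5 CPM at day 7 (21.7 to 23.4) and 32.2 CPM at day 42 (30.7 to 33.7). The log2 ratio to day 0 was 1.08 for day 7 and 1.46 for day 42. In clusters that also had high Areg the values went different ways. Cluster 1 was at 6.61, 13.2 and 32.3 CPM and cluster 3 at 5.72, 41.5 and 27.2 CPM. Clusters 5 and 12 were highest at day 0, at 63.6, 50.5 and 49.2 CPM and at 69.8, 44.3 and 19.2 CPM. Those day 0 levels rest on few UMIs. Of 182 squamous Ereg UMIs at day 0, cluster 5 gave 46.7% from 87 cells and cluster 12 gave 6.04% from 51 cells. At day 42 cluster 12 gave 0.214% of 1870. Equal cluster weights gave 0.051 for day 7 and -0.086 for day 42, both under 2-fold. At day 7 Ereg was above its day 0 level in 7 of 9 clusters, with log2 ratios from -0.55 to 1.71, and at day 42 in 5 of 9, from -1.45 to 1.35. Thinned shares were 0.274%, 2.03% and 2.70%.

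Tgfa, a ligand made by many epithelia, was low in squamous cells, at 10.1, 16.8 and 22.99 CPM (log2 ratios of 0.42 and 0.72 to day 0). Cluster 5 had the highest Tgfa level of the clusters, 32.2, 49.9 and 33.2 CPM. Columnar cells had 13.5, 19.9 and 13.8 CPM, above the squamous level at day 0 and day 7 and below it at day 42. In T cells, used as a background for free RNA, Tgfa gave 1.81 and 3.01 CPM at day 0 and day 7 from 1 UMI each, and none at day 42.

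Epgn, a ligand known from skin, gave 26, 1012 and 110 UMIs in squamous cells on the 3 days. That is 0.765 CPM (interval 0.500 to 1.12), 7.89 CPM (7.41 to 8.39) and 1.89 CPM (1.56 to 2.28). Unscaled, day 7 was 10.3-fold higher than day 0, but on the log2 scale with 10 CPM added the ratio was 0.73, since the levels are low. Cluster 3 gave 82.8% of squamous Epgn UMIs at day 7, from 325 of its 1983 cells, at 15.0 CPM against 0.260 CPM (1 UMI) at day 0. Cluster 17 had 16.7 CPM at day 7, but from 6 cells. Columnar cells had 0.797, 0.673 and 0.626 CPM, no lower than squamous cells at day 0, when colonocytes gave 33 of all 62 Epgn UMIs. T cells had no Epgn UMI on any day.

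Btc had 5.15, 4.25 and 6.59 CPM in squamous cells and 7.59, 10.8 and 6.35 CPM in columnar cells. Its highest cluster values were 39.6 CPM in cluster 5 at day 0, against 14.2 and 14.0 CPM there on the later days. Fibroblast Btc was 7.04, 26.2 and 10.2 CPM, with a log2 ratio of 1.09 at day 7 against day 0 that was 0.18 without the 10 cells with most Btc UMIs.

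Egfr, the receptor that the ligands above bind, was measured in squamous cells at 61.7 CPM at day 0 (interval 59.0 to 64.4), 39.9 CPM at day 7 (38.8 to 41.0) and 39.0 CPM at day 42 (37.4 to 40.6). Day 0 was the highest, and the later days overlapped each other. The log2 ratios against day 0 were -0.52 and -0.55, under 2-fold, and equal cluster weights took them to -0.29 and -0.077. Egfr UMIs were found in 42.6%, 36.8% and 23.2% of squamous cells, and in 6.40%, 4.33% and 4.10% after thinning. T cells, the background class for free RNA, had Egfr UMIs in 0.457%, 2.54% and 0% of cells (0 of 121 allows up to 3.00%) at median depths of 2064, 2260 and 1393 UMIs, and after thinning in 0.513% at day 0 and in 0 of 108 and 0 of 90 cells later, which allows up to 3.36% and 4.02%. Cluster 17 had the highest Egfr level on each day, 85.2, 90.5 and 128 CPM. Cluster 9 had 79.4, 64.2 and 88.2 CPM and cluster 13 had 81.1, 46.4 and 61.2 CPM. Clusters 3, 5 and 12 were lowest, between 23.9 and 48.4 CPM.

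Fibroblasts had 78.3, 80.9 and 74.4 CPM of Egfr with overlapping counting intervals. That level differed less between day 0 and the later days than the level of all squamous or all columnar cells did. At day 0 the order of Egfr levels was fibroblasts (78.3 CPM), keratinocytes (61.7 CPM), cells named Unknown (23.8 CPM) and colonocytes (17.5 CPM). Fibroblasts also led at day 7 and day 42. Columnar cells had 17.02, 24.7 and 20.4 CPM, with log2 ratios of 0.36 and 0.17 against day 0. T cells, macrophages, neutrophils and blood endothelial cells were at 9.04 CPM or less.

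Erbb2, the partner receptor without a ligand of its own, was at 39.3, 26.8 and 24.0 CPM in squamous cells and at 52.0, 56.1 and 45.9 CPM in columnar cells. Its squamous log2 ratios against day 0 were -0.42 and -0.54. Within the columnar cells, cluster 2 had 83.8, 63.0 and 58.2 CPM. Fibroblasts had 17.1, 20.2 and 14.6 CPM. Erbb3, the partner receptor that binds neuregulins, was higher in columnar cells, at 87.6, 102 and 98.3 CPM, than in squamous cells, at 36.03, 29.9 and 31.7 CPM. The counting intervals of the squamous and columnar levels did not overlap on any day. Cluster 2 again had the highest level, 139, 117 and 142 CPM, and fibroblasts had 5.66, 7.65 and 11.7 CPM, from 37, 14 and 8 UMIs, near the T cell level. T cells had 1.81, 3.01 and 5.02 CPM of Erbb2 from 1 UMI each, and 5.43, 6.03 and 15.0 CPM of Erbb3 from 3, 2 and 3 UMIs. Egfr was thus highest in fibroblasts and keratinocytes, and Erbb3 in colonocytes.

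Counted together, 2 of the 9 members in squamous cells were at least 2-fold higher at day 7 than at day 0 (Areg and Ereg) and 0 were lower. Of all 10088 genes measured there, 1.15% were higher and 0.971% lower. For day 42 over day 0, 3 of 8 members measured were higher (Areg, Ereg and Hbegf) and 0 lower, against 2.31% and 1.99% of genes. For day 42 over day 7, 1 of 9 was higher (Hbegf) and 0 lower, against 1.73% and 1.43%. The 9 members had a median log2 ratio of 0.42 for day 7 over day 0 (-0.028 over all genes), and the 8 measured for day 42 over day 0 had a median of 0.42 (-0.047 over all genes, or 0.090 with size factors). Every member at least 2-fold higher was a ligand, and the 3 receptor ratios to day 0 were below 0, but Erbb3 turned to 0.055 for day 7 after thinning to 1000 UMIs per cell and to 0.012 for day 42 with size factors. Equal cluster weights left 0, 1 and 0 members higher in the 3 comparisons.

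In columnar cells no member was 2-fold higher or lower in any of the 3 comparisons. Of all genes there, 3.37% were higher and 2.03% lower on day 7 than day 0. The shares were 1.16% and 0.361% for day 42 over day 0, and 1.04% and 1.35% for day 42 over day 7. In fibroblasts, 2 of 7 members measured were higher at day 7 than at day 0 (Ereg and Btc) and 0 lower, against 2.65% and 2.25% of genes. Areg was just under 2-fold at day 7 (log2 ratio 0.89), past it in 4 of 6 alternatives (up to 1.38 as the mean of CPM per cell) and at 0.19 without the 10 cells with most Areg UMIs. Btc stayed past 2-fold in 3 of 6 alternatives. For day 42 over day 0 they were Areg and Hbegf (2 of 7 higher, 0 lower, against 1.59% and 1.04%). Ereg alone was lower at day 42 than at day 7 (1 of 7, with 0 higher, against 2.27% lower and 1.77% higher). Fibroblast Areg was 16.98, 39.9 and 59.8 CPM and Hbegf 17.6, 30.1 and 58.4 CPM, and keratinocyte markers in these cells summed to 1391, 2063 and 4947 CPM. The part of those markers in the day 42 values was not tested. Fibroblast Areg at day 42 went from 1.37 to 0.38 without the top 5% of cells by Scrublet doublet score and to 0.44 without the 10 cells with most Areg UMIs, both under 2-fold. The 10 fibroblasts with most Hbegf UMIs gave all of it at day 42, and without them the day 42 ratio turned from 1.31 to -0.99.

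The source of each transcript in a library depends on the level in a cell type and on how many of its UMIs were captured. Keratinocytes gave 7.33% of Areg UMIs at day 0, 83.3% at day 7 and 78.8% at day 42. They gave 38.1%, 84.5% and 80.4% of all UMIs, so Areg was under-represented in keratinocytes at day 0 and close to their share of all UMIs later. Colonocytes gave 88.0%, 15.1% and 19.2% of Areg UMIs from 44.6%, 5.66% and 13.7% of all UMIs. Hbegf had nearly the same day 0 split, 89.6% from colonocytes and 6.55% from keratinocytes, and 67.0% and 70.8% from keratinocytes on the later days. Fibroblasts gave 65.4% of Ereg UMIs at day 0, 40.9% at day 7 and 4.73% at day 42, from 7.32%, 1.20% and 0.948% of all UMIs. Keratinocytes gave 21.0%, 52.1% and 92.1% of Ereg. Fewer cells of a type and less RNA per cell cannot be told apart in such shares of a library.

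On the receptor side, keratinocytes gave 61.4%, 91.5% and 87.6% of Egfr UMIs, above their share of all UMIs on each day. Fibroblasts gave 15.0%, 2.65% and 1.97% of Egfr. Colonocytes gave 70.1%, 18.3% and 34.3% of Erbb3 UMIs and 56.6%, 11.9% and 24.6% of Erbb2 UMIs, both above their share of all UMIs. At day 0, then, most Areg and Hbegf UMIs lay in colonocytes and most Egfr UMIs in keratinocytes, while at day 7 and day 42 keratinocytes held most of all 3.

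**Figure D3:**
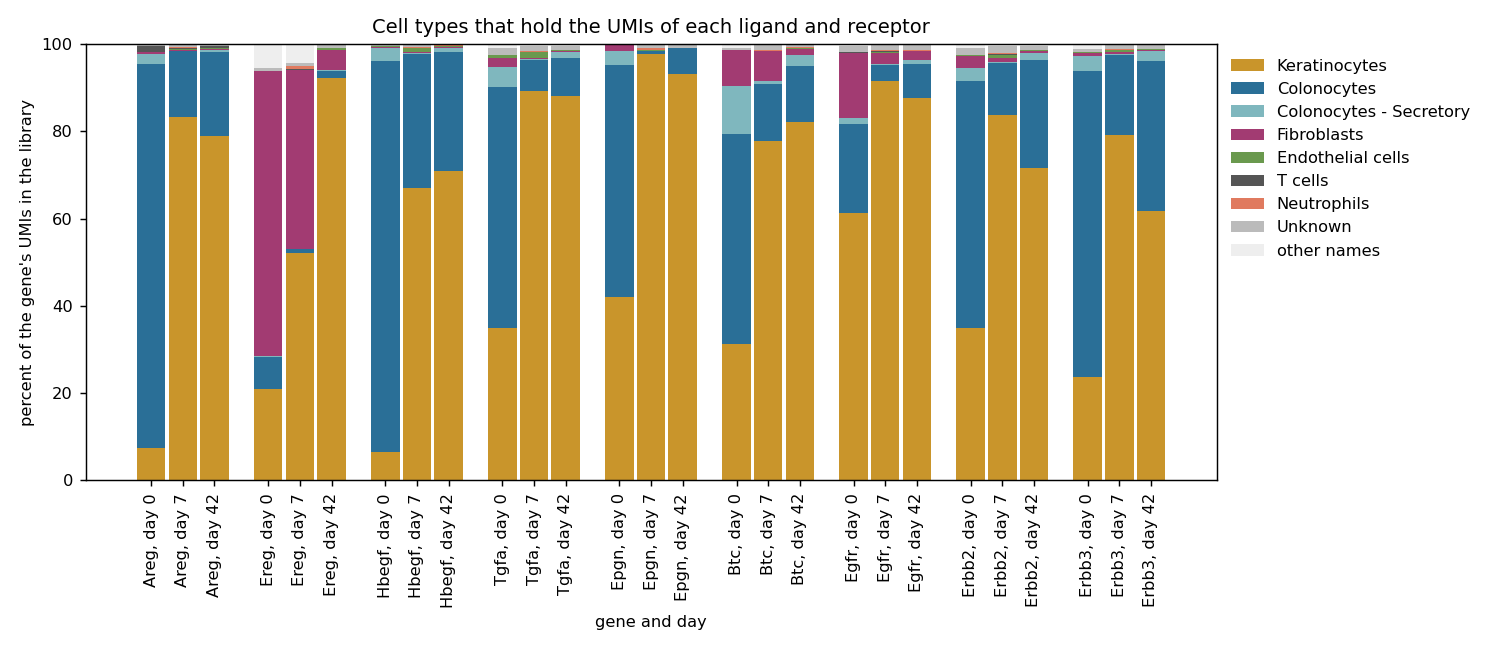
Stacked bars of the percent of each gene's UMIs (y axis, 0 to 100) that came from each authors' cell type name, for the 9 genes at day 0, day 7 and day 42. Colonocytes hold 88.0% of Areg UMIs at day 0, keratinocytes 83.3% at day 7, and fibroblasts 65.4% of Ereg UMIs at day 0.

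Among the squamous clusters, those with most Areg, Ereg and Hbegf tended to have less Egfr. Over the 9 keratinocyte clusters, with cells of all days pooled, log2(CPM + 10) of Areg had a Pearson r of -0.87 with Egfr, 0.98 with Ereg, 0.94 with Hbegf and 0.84 with Tgfa. Ereg and Hbegf had r of -0.86 and -0.77 with Egfr. Since clusters took different shares of each library, the pooled values also hold the make-up by day, and within day 0, day 7 and day 42 the r of Areg with Egfr was -0.88, -0.84 and -0.80. That with Tgfa varied more by day, at 0.28, 0.75 and 0.66. With Erbb2 the pooled r of Areg was -0.35 and the values by day were 0.040, -0.17 and -0.28. With Erbb3 the pooled r was 0.0053 and the values by day were 0.59, 0.059 and 0.26. The ligand-rich cluster 5 had 69.5, 53.4 and 46.9 CPM of Erbb3, the most of the 9 clusters on each day. Over all 24 clusters with at least 50 cells the value for Areg and Egfr was -0.017, and Erbb2 and Erbb3 had 0.87. These values describe the clusters, whose cells share 3 libraries and differ in depth. After thinning to 1000 UMIs, Egfr was found in 7.59% of 79 squamous cells with an Areg UMI and 6.37% of the others at day 0. At day 7 the shares were 2.45% of 1223 and 4.64%, and at day 42 they were 2.96% of 1993 and 4.49%.

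In fibroblasts at the same 1000 UMIs per cell, Egfr was found in 9.09% of 77 cells with an Ereg UMI and 7.46% of the others at day 0, and in 7.84% of 102 and 9.39% at day 7.

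**Figure D4:**
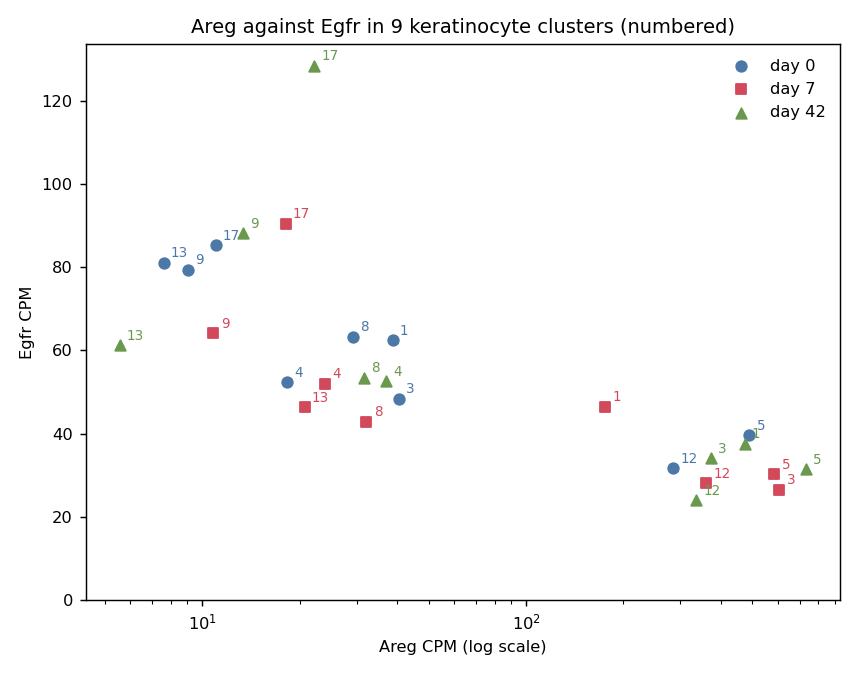
Egfr CPM (y axis) against Areg CPM (x axis, log scale) in the 9 keratinocyte clusters at day 0, day 7 and day 42, with 1 numbered point per cluster and day. Points with Areg above 100 CPM all lie below 50 CPM of Egfr, and clusters 1 and 3 move to the right after day 0.

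The rest of the pathway was read from 5 lists. Among other ErbB ligands, Nrg1, the neuregulin that binds ERBB3, was 185 CPM in fibroblasts at day 0, 666 CPM at day 7 and 362 CPM at day 42, so it was 2-fold higher at day 7 as 1 of the 2 genes measured of 6 listed. In squamous cells Nrg1 was 10.8, 28.9 and 29.3 CPM, and 0 of 3 measured genes reached 2-fold at day 7. Over all genes, 2.65% were higher in fibroblasts at day 7, and in squamous cells 1.15% were higher and 0.971% lower at day 7 and 2.31% and 1.99% at day 42. Of 5 genes for shedding, Timp3, which inhibits ADAM17, was lower in squamous cells at day 7 (16.3 against 46.1 CPM at day 0), while Adam17 was 35.1, 30.7 and 31.2 CPM. Of the feedback inhibitors measured in squamous cells (14 of 15), 0 differed by 2-fold at day 7 and 1 was higher at day 42. This was Dusp5, an ERK phosphatase, at 7.09, 16.8 and 34.7 CPM. None of the 15 adaptors and early relay genes differed by 2-fold in squamous, columnar or fibroblast cells.

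Of 11 transcripts known to respond to ERK signals, 3 were higher in squamous cells at day 7 than at day 0 and 4 at day 42, with 0 lower, to be read against the squamous shares over all genes above. Phlda1 was 59.3, 187 and 513 CPM, Plaur 4.12, 21.9 and 38.9 CPM, and Fosl1, an AP-1 subunit, 2.82, 20.3 and 27.8 CPM. Ier3 joined them at day 42, at 362 CPM against 114 CPM at day 0. The list's median log2 ratio was 0.54 at day 7 and 0.79 at day 42, beside -0.028 and -0.047 over all genes. The squamous dissociation response list was 1519, 1962 and 3152 CPM on the same days, and its part in these transcripts was not tested. In columnar cells 1 was higher (Ier3, 85.0 against 35.2 CPM) and 1 lower (Etv4) at day 7. Of the columnar feedback inhibitors, 2 were higher (Dusp6 and Socs3) and 1 lower (Lrig1, 7.18 against 39.2 CPM), beside 3.37% higher and 2.03% lower over all genes there. In fibroblasts at day 7, Fosl1 was higher and Fos and Ier2 were lower, and at day 42 Fos, Egr1 and Ier2 were lower than at day 0. Over all fibroblast genes 2.65% were higher and 2.25% lower at day 7, and 1.59% and 1.04% at day 42. The dissociation response list in fibroblasts, which holds related immediate-early genes, was 5533, 2550.0 and 2284 CPM on the 3 days. Its part in those 3 transcripts was not tested.

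The genes most like each member in pattern were taken over the 24 clusters from 11467 genes, by Pearson r of log2(CPM + 10). Coro2a (r of 0.88), Kcnn4 and Mboat1 were nearest to Areg, Hoxa11 (0.93), Twist2 and Pcdh18 to Ereg, and Trim16 (0.95), Sprr2a3 and 2200002D01Rik to Hbegf. Epha2 (0.91) and Itga6 were near to Tgfa. Fgfr2 (0.90), Efs and Pik3r2 were nearest to Egfr, Arhgap32 (0.92), Ctnnd1 and Net1 to Erbb2, and Cdh1 (0.97), Elmo3 and Chmp4c to Erbb3. The ranking pooled the cells of all days, and Epgn and Btc were then under 20 CPM in every cluster.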

How the data were processed

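Single-cell 3' RNA was measured in 3 libraries, 1 per day. The authors deposited whole-number counts per gene and cell without normalization, and a cell table with day, cluster, cell type name and a size factor, which is a ratio of each cell's total count to a common value and was used only to check the order of cells. Reads were processed with Cell Ranger 3.0.2 on mm10, per the submitters' processing notes. The annotation release and the method of cell typing are not given in the sources used here.

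UMIs were summed per cell type name or cluster and library and divided by all UMIs there (CPM). Groups under 50 cells were left without a level. A zero was read as at most 3 counts, per group and library. Intervals were exact Poisson and Clopper-Pearson at 95%, and PCR or mouse variation is outside them. Doublets were kept, and removing the top 5% of cells by Scrublet doublet score was an alternative, as was removing the 10 cells richest in a gene. The log2 ratios and their counting intervals were tested on simulated Poisson counts, and the other steps were not tested in that way. The tools were scanpy 1.11.5, scipy 1.17.1, numpy 2.4.6, pandas 2.3.3 and matplotlib 3.10.9 under Python 3.11.15.

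All 9 members are named. Pathway genes are named from the 2 highest and 2 lowest ratios of each list, or where they reached 2-fold, and the 3 most similar genes are named for members with at least 20 CPM in a cluster. A gene that this rule names is not reported here. Members, lists and alternatives were chosen with earlier results of these data known, and no set of values here is independent support for them.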

Additional observations from a re-analysis of the deposited data

Results flagged for a closer look

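The results here had opposite signs in different cell types between the same 2 days, and the differences were not tested, since there is 1 library per day. Egfr at day 7 against day 0 had a log2 ratio of -0.5221 in squamous cells and 0.3606 in columnar cells. Areg at day 42 against day 7 had 0.5872 in squamous cells, 0.485 in fibroblasts and -0.3925 in columnar cells. Ereg at day 42 against day 7 had 0.3748 in squamous cells and -3.058 in fibroblasts. In cluster 2, the 1 columnar cluster with at least 50 cells on both days, the Areg value was 0.0518, and with equal cluster weights the squamous Ereg value was -0.1366. Fibroblast Areg turned to -0.8888 without the top 5% of cells by Scrublet score and to -0.8192 as the mean of CPM per cell, so its opposite sign did not hold there.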

How the results depend on the processing

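No paired analysis was possible because there is 1 library per day, so the shared replicate number leaves no second pair. Each log2 ratio of a member was recomputed once per alternative. Of these recomputed values, 435 stayed within counting error of the ratio given, 182 moved and 2 reversed, where reversed counts only ratios of at least 2-fold that changed sign. These were Ereg in squamous cells at day 42 against day 0 (-0.0859 with equal weight to clusters) and Hbegf in fibroblasts at day 42 against day 0 (-0.9875 without the 10 cells with most UMIs of the gene, which were all that had an Hbegf UMI at day 42, so that the level becomes 0 by construction). The cause for Ereg was not tested. The counts of members at least 2-fold higher or lower were also recomputed once per alternative, and 153 of those values stayed within 1.5 times the value given and 15 moved. With equal weight to clusters, the squamous counts of higher members were 0 for day 7 over day 0, 1 for day 42 over day 0 and 0 for day 42 over day 7. Thinning to 1000 UMIs per cell gave 2 higher in squamous cells at day 42 against day 7, and a pseudocount of 1 CPM gave 1 lower there. In columnar cells at day 7 against day 0, 1 was higher with median-of-ratios size factors and 1 with a pseudocount of 1 CPM. In fibroblasts, leaving out the 10 cells with most UMIs gave 1 higher at day 7 against day 0, and 0 higher and 1 lower at day 42 against day 0. The lower member was Erbb2, with a UMI in 9 fibroblasts at day 42, so that leaving out 10 cells sets it to 0 by construction, also for day 42 against day 7. At day 42 against day 0, 0 were higher with the mean of CPM per cell and 0 without the top 5% of cells by Scrublet score. At day 42 against day 7, 2 were lower in fibroblasts with thinning, with a pseudocount of 1 CPM, and without the 10 cells with most UMIs. The percentages of a member's UMIs from keratinocytes were recomputed likewise, and 48 values stayed and 33 moved beyond their counting intervals. Most moved with cells filtered to at least 1000 UMIs, at least 500 genes and at most 20% mitochondrial UMIs, where 19 moved and 8 stayed. Without the 10 cells with most UMIs of the gene, 3 moved and 24 stayed. The fibroblast alternatives, and leaving out cluster 12 or shared barcodes, were chosen after seeing the data. Depth limits Epgn and Btc, with few UMIs in most cell types, and all fibroblast values at day 42, from 222 cells.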

Other observations

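Cells that the authors named Unknown fell into clusters 6 and 14, and cluster 14 held more of the ligands. Areg in cluster 14 was 21.1 CPM at day 0, 119 CPM at day 7 and 235 CPM at day 42, and Hbegf was 52.0, 64.8 and 139 CPM. Egfr was 56.2, 46.2 and 76.7 CPM, above the squamous level at day 7 and day 42.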
